A study of Homo sapiens with 6 samples.

Results

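The zinc finger genes of 19q13.12 described here were 10 of the 60609 genes in the count tables: ZNF260, ZNF529, ZNF382, ZNF461, ZNF567, ZNF850, ZNF790, ZNF345, ZNF829 and ZNF568. They are neighbours on chromosome 19 of GRCh38, from the end of ZNF260 at base 36510687 to the end of ZNF568 at base 37005037. The set was picked from measured values of these libraries, because this stretch of the chromosome was seen to rise in Delta-TRRAP. Their fold changes are therefore a description and carry no test. All 10 passed the filter on low counts, an average of 5 or more normalized counts (counts scaled for library size) over the 6 libraries, as did 19114 genes in all.

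K562 is an established human leukaemia line. In the cells used here EP400, which forms the motor and scaffold of the TIP60 acetyltransferase complex, carries on both alleles a tag through which the small molecule dTAGV-1 has the protein degraded. A transgene at the AAVS1 locus supplied EP400 either intact (WT) or lacking the segment that holds TRRAP, the large scaffold protein shared by TIP60 and SAGA (Delta-TRRAP). Poly(A) RNA of each line was sequenced in 3 libraries after 24 h in 500 nM dTAGV-1, so the tagged endogenous allele, the transgene site and the treatment were common to both groups. Per the methods of the study each line was 1 clone, so genotype and clone cannot be told apart. The methods call the 3 libraries of a line biological replicates, so the errors measure the spread between replicates of that clone and not between clones.

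Zinc finger proteins of the C2H2 type bind DNA through tandem fingers, each folded around a zinc ion by a pair of cysteines and a pair of histidines. Many of them carry a KRAB domain, which recruits the corepressor TRIM28 (KAP1) and through it the methyltransferase SETDB1 and the heterochromatin protein HP1, and a large part of this family silences transposable elements. In humans most KRAB zinc finger genes lie in clusters on chromosome 19, grown by duplication, and the bodies of the genes themselves often carry the H3K9me3 mark of heterochromatin.

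The 4 genes of the set with a WT mean of at least 500 normalized counts stayed within 2-fold of WT, and the 6 with a WT mean under 100 were all higher in Delta-TRRAP. A rise of the stretch thus held for 6 members, and 4 did not follow it. The cuts at 100 and 500 were set after the values were seen. A gene was called where its edgeR adjusted p (Benjamini-Hochberg) was 0.01 or less and its change at least 2-fold, and 6 members were called higher, where 16.5% of all tested genes were. None was called lower, against 6.08% of tested genes. At the adjusted p alone 8 members passed, beside 58.3% of tested genes. In all 10 members the 3 Delta-TRRAP libraries did not overlap the 3 WT libraries (8 higher, 2 lower), as was the case for 71.1% of tested genes. Since the set was selected on this contrast, nothing is read from these counts. The median log2 fold change of the members, Delta-TRRAP over WT, was 1.71, and that of all tested genes was 0.03.

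**Figure D1:**
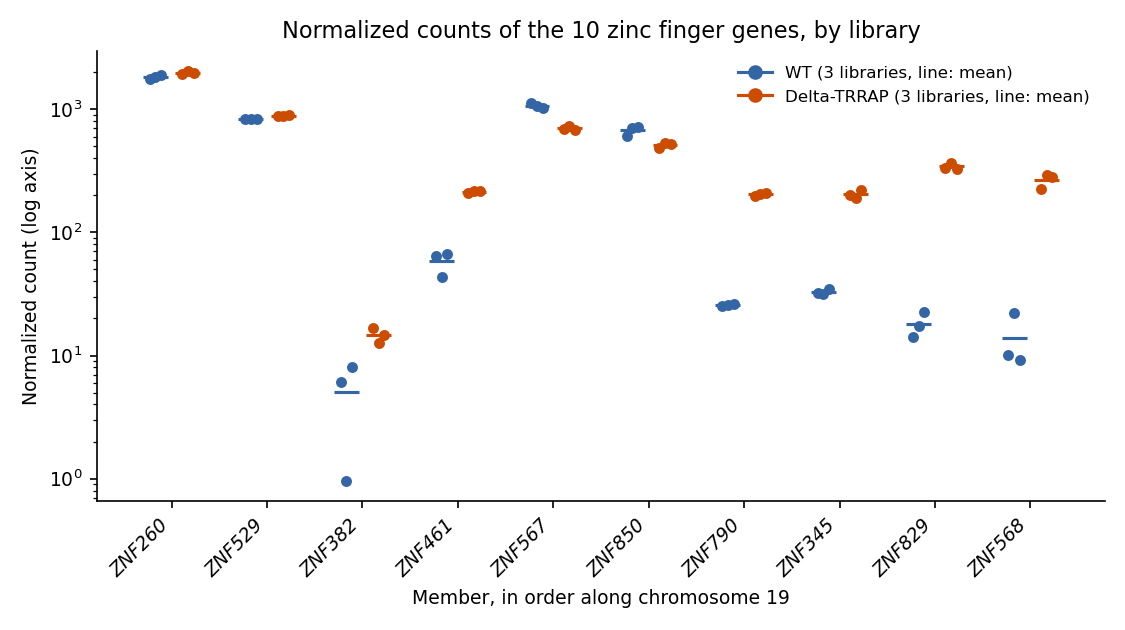
Normalized counts (log axis) of the 10 zinc finger genes in the order of their position on chromosome 19, with a point for each of the 3 WT and 3 Delta-TRRAP libraries and a line at each group mean. The 4 genes with WT means of at least 500 stay within 2-fold of WT, with ZNF567 and ZNF850 lower in Delta-TRRAP. ZNF829 and ZNF568 move from means of 17.9 and 13.8 to means of 344 and 266.

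The largest differences lay in the divergent pair ZNF829 and ZNF568. The mouse counterpart of ZNF568, Zfp568, is known as a KRAB repressor of a placental promoter of Igf2. ZNF829 (ENSG00000185869.14, bases 36888124 to 36916291, minus strand) held 14.2, 17.3 and 22.4 normalized counts in the WT libraries and 333, 368 and 329 in the Delta-TRRAP libraries. Every Delta-TRRAP library was thus far above every WT library, with a log2 fold change of 4.25 ± 0.15 (SE, n = 3 each). ZNF568 (ENSG00000198453.13, bases 36916316 to 37005037, plus strand) held 10.1, 22.1 and 9.16 normalized counts in WT and 224, 290 and 282 in Delta-TRRAP. WT library 2 was the highest of the WT libraries for ZNF568, and even so lay more than 10 times below the lowest Delta-TRRAP library. The log2 fold change of ZNF568 was 4.24 ± 0.22, and it was 4.75 without WT library 2. The annotated starts of both genes lie 25 bases apart on opposite strands, and their log2 fold changes differed by 0.013.

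RefSeq puts the start of ZNF568 at 41 bases from that of ZNF829, and 140 bases of their promoter windows (250 bases before to 50 bases after each start) are common to both. The ZNF568 window is shown because the pair with the largest change shares part of it. Capitals mark the letters of motifs that were searched: near its 5′ end the reverse complement of ACNNTTCCC, a core of the site bound by ZNF143, and further on CCGGAAG, a core of ETS family sites. The ETS core lies in the 140 shared bases. The ZNF143 core lies outside them, in the window of a second RefSeq start of ZNF829.
ZNF568 promoter, chr19:36916082-36916381, plus strand: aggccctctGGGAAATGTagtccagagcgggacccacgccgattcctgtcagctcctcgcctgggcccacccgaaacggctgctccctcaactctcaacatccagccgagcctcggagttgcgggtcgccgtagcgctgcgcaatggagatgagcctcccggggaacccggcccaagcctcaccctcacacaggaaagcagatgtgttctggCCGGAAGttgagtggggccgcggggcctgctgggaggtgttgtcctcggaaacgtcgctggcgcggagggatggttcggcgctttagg

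Upstream of that pair along the chromosome lies another divergent pair, ZNF790 and ZNF345, whose annotated spans overlap by 427 bases at their starts. ZNF790 (ENSG00000197863.9, bases 36817428 to 36850787, minus strand) held 25.3, 25.9 and 26.4 normalized counts in WT and 198, 206 and 209 in Delta-TRRAP, a log2 fold change of 2.97 ± 0.14. ZNF345 (ENSG00000251247.11, bases 36850361 to 36913029, plus strand) held 32.4, 31.7 and 34.6 in WT and 202, 191 and 221 in Delta-TRRAP, a log2 fold change of 2.63 ± 0.14. Both genes were tight in the WT group, with coefficients of variation of 2.17% and 4.63%, and the Delta-TRRAP libraries lay well above. ZNF345 runs on the plus strand across most of ZNF829 on the minus strand, and the counting used strand. GENCODE release 44 also annotates a readthrough gene over ZNF345 and ZNF568, which the authors' table does not list, so a read through both genes could not be assigned apart from them here.

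The first RefSeq start of ZNF345 lies 84 bases from that of ZNF790, and the windows share 183 bases. Its window held all of the GC box GGGCGG, the ETS core and the ZNF143 core, and is shown as the promoter of the second pair. Capitals mark, from the 5′ end, CCGGAAG, ACNNTTCCC and GGGCGG.
ZNF345 promoter, chr19:36850626-36850925, plus strand: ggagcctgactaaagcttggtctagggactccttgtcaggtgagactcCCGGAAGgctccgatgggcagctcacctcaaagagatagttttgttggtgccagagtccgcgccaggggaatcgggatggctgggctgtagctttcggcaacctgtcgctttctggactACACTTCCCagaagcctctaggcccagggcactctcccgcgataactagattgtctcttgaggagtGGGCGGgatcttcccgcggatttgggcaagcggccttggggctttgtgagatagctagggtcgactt

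ZNF461, the human counterpart of a gonadotropin-inducible rat gene, was higher to a smaller degree. It (ENSG00000197808.12, bases 36636618 to 36666853, minus strand) held 63.8, 43.2 and 67.2 normalized counts in WT and 208, 217 and 217 in Delta-TRRAP, a log2 fold change of 1.89 ± 0.14. The Delta-TRRAP libraries agreed closely, with a coefficient of variation of 2.49%, while the WT libraries spread by 22.4%. The ZNF461 window is shown because ZNF461 was the only well-counted called member with no match to the ZNF143 core in any of its windows. Its capitals mark CTTCCGG, the reverse complement of the ETS core. The first RefSeq start of ZNF567, a member that was not higher, lies 97 bases from that of ZNF461, and the windows share 196 bases. ZNF567 has a second RefSeq start, with its window at bases 36687362 to 36687661. Counts per gene do not tell which start was used, so the shared sequence may not be the promoter in use for ZNF567.
ZNF461 promoter, chr19:36666788-36667087, minus strand: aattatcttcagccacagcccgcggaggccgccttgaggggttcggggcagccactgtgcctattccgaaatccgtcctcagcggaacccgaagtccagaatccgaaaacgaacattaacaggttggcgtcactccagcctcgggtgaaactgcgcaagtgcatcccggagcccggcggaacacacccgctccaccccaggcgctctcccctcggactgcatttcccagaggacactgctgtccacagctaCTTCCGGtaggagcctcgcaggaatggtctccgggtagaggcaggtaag

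ZNF382, a KRAB repressor gene known to be silenced by promoter methylation in several cancers, was close to the filter. Its raw reads (ENSG00000161298.18, bases 36604817 to 36634114, plus strand) were 6, 1 and 8 in WT and 17, 13 and 14 in Delta-TRRAP. The mean normalized count was 5.06 ± 3.70 in WT and 14.7 ± 2.0 in Delta-TRRAP (SD, n = 3 each), and the groups did not overlap. The log2 fold change was 1.54 ± 0.47 (SE) and moved between 1.03 without WT library 2 and 2.05 without WT library 3. The call was lost in 6 of the 13 alternatives, DESeq2 and the replicate block among them, and in a further alternative the gene fell under the filter. Of the 6 members called higher, ZNF382 was the only one whose call changed in any alternative.

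The 4 members with high WT counts were ZNF260, ZNF529, ZNF567 and ZNF850. ZNF260, whose rodent counterpart is a partner of GATA4 in the heart, was the most abundant member. It (ENSG00000254004.7, bases 36510687 to 36528271, minus strand) held 1757, 1817 and 1899 normalized counts in WT and 1954, 2040 and 1974 in Delta-TRRAP, with a log2 fold change of 0.12 ± 0.05. ZNF529 (ENSG00000186020.13, bases 36534774 to 36605276, minus strand) held 840.0, 829.8 and 827.2 in WT and 877.7, 877.4 and 905.5 in Delta-TRRAP, with a log2 fold change of 0.09 ± 0.06. In both genes the Delta-TRRAP libraries lay just above the WT libraries.

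The remaining pair was lower in Delta-TRRAP. ZNF567 (ENSG00000189042.13, bases 36687612 to 36727701, plus strand) held 1124, 1064 and 1034 normalized counts in WT and 689, 736 and 684 in Delta-TRRAP, with a log2 fold change of -0.61 ± 0.06. ZNF850 (ENSG00000267041.6, bases 36714383 to 36772825, minus strand) held 613, 699 and 712 in WT and 483, 533 and 519 in Delta-TRRAP, with a log2 fold change of -0.40 ± 0.07. Neither was past 2-fold, and ZNF567 was called lower in 1 of the 13 alternatives, that with the fold change lowered to 1.5. The spans of these genes overlap on opposite strands.

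The windows of ZNF260 and ZNF850 are shown as promoters of members that were not called. Each held a match to ACNNTTCCC, as its reverse complement in ZNF260 and on the printed strand in ZNF850, and neither held the ETS core.
ZNF260 promoter, chr19:36528222-36528521, minus strand: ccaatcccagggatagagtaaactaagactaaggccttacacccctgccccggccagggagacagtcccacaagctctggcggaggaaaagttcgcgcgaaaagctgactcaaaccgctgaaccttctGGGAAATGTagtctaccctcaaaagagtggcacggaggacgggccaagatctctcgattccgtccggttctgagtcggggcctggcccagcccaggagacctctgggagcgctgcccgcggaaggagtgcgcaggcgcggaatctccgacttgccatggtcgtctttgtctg
ZNF850 promoter, chr19:36772758-36773057, minus strand: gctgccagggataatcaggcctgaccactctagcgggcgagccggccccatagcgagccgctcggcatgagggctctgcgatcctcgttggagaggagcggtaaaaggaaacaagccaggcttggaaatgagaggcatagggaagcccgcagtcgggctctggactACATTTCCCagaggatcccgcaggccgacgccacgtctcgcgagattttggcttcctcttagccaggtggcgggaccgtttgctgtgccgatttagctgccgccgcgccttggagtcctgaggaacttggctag

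The shared letters did not follow the calls. The ZNF143 core was added after the members' promoters had been read, so its counts describe these windows only. When 17 windows of the 10 members were searched on both strands, it was found in 11 of them (64.7%), which belong to 8 members, all except ZNF382 and ZNF461. Windows of divergent partners share sequence, so 1 match can count in both. The same letters were in 5.49% of the 34943 windows in the RefSeq table and in 17.4% of the 547 windows of other ZNF and ZFP genes. The ETS core was found in 5 of the 17 windows (29.4%), those of ZNF345, ZNF461, ZNF567, ZNF568 and ZNF829, against 10.2% of all windows and 33.8% of other zinc finger windows. The GC box was found in 7 of the 17 windows (41.2%), which belong to ZNF345, ZNF382, ZNF529, ZNF567 and ZNF790, against 44.9% of all windows and 60.9% of other zinc finger windows. GCATGCGC, an NRF1 core, was found in ZNF567 only (3.02% of all windows), and TATAAA in ZNF790 only (11.6%). No member held the E-box CACGTG, the E2F core TTTCCCGC, the YY1 core AANATGGC or the CREB core TGACGTCA, which were in 7.23%, 1.62%, 6.57% and 1.84% of all windows. No match says only that these letters are not in the window. The median GC content of the members' windows was 61.3%, equal to that of all zinc finger windows, beside 58.7% for all windows.

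Divergent partners did not always move together. The spans of ZNF529 and ZNF382 overlap by 460 bases at their starts. Their log2 fold changes were 0.09 ± 0.06 and 1.54 ± 0.47 (SE), the latter from a gene close to the filter. In LINC01534 and ZNF567, with starts 144 bases apart, they were 0.84 and -0.61. In ZNF585B and ZNF383, further along the stretch, they were 1.01 and -0.10, and the counts of ZNF585B are uncertain, as described below. Across the genome 1089 protein-coding pairs had divergent starts within 1000 bases of each other and both genes tested. In 160 of them at least 1 gene was called higher, and in 26 of those, or 16.2%, both were. This is a share of pairs and cannot be set beside the share of all tested genes called higher. The share for genes paired regardless of position was not computed, so nothing is read from it. ZNF829 with ZNF568 and ZNF790 with ZNF345 were among the 13 pairs in which both genes were at least 4-fold higher.

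The rest of the stretch held 6 further protein-coding genes that passed the filter, and 3 were called higher. ZNF875 (HKR1) held 48.6, 36.5 and 46.8 normalized counts in WT and 697, 629 and 643 in Delta-TRRAP, a log2 fold change of 3.90 ± 0.11 that placed it between ZNF568 and ZNF790. ZNF585A and ZNF585B had log2 fold changes of 1.14 ± 0.12 and 1.01 ± 0.10. They are near-copies of each other and reads common to both were discarded, so their counts are uncertain. ZNF585B lost its call in 3 of the 13 alternatives and ZNF527, at 0.94 ± 0.08, gained one in 3. ZNF420 had a log2 fold change of 0.00 ± 0.07 and ZNF383 of -0.10 ± 0.08, and in both the groups overlapped. Of 4 genes of other types in the stretch, the low-count LINC01535 was called higher, with means of 4.27 in WT and 20.4 in Delta-TRRAP. Genes that were called higher and genes that were not thus lay interspersed along the stretch. ZNF790, ZNF345, ZNF829 and ZNF568, all called higher, lay next to each other.

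Beyond the stretch most values lay below 0. The 5 nearest tested protein-coding genes before it, all zinc finger genes, had log2 fold changes below 0: ZNF146 at -1.08 and ZFP82 at -1.32 were called lower, and ZNF565 at -0.26, ZFP14 at -0.83 and ZNF566 at -0.70 were not called. Of the 5 nearest after it, ZNF793, with means of 3.01 in WT and 10.3 in Delta-TRRAP, was called higher at 1.75 ± 0.51. The others, ZNF569 at -0.44, ZNF570 at 0.22, ZNF540 at -0.11 and ZNF571 at -0.94, were not called. Within 1 Mb on each side, 31 protein-coding genes before the stretch had a median of -0.46 with 1 called higher and 4 lower, and 18 after it had a median of -0.41 with 3 called higher and 2 lower.

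**Figure D2:**
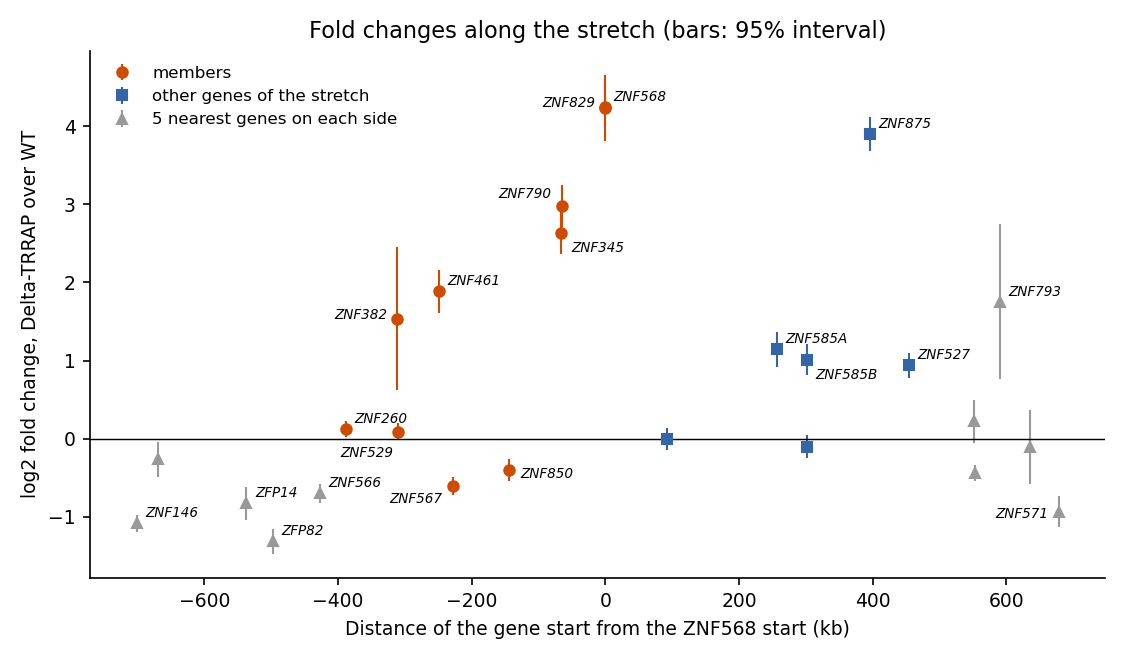
Log2 fold change, Delta-TRRAP over WT, of the members, of the other protein-coding genes of the stretch and of the 5 nearest protein-coding genes on each side, against the distance in kb of each gene's start from the start of ZNF568 (bars: 95% interval from the SE, n = 3 per group). The points of ZNF829 and ZNF568 coincide at the top, ZNF875 stands at 3.90 among genes near 1 and 0, and the genes before the stretch lie below 0.

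Levels between genes were compared per kb of annotated exon. In WT the order was ZNF260 (327 normalized counts per kb), ZNF567 (227), ZNF529 (102), ZNF850 (86.0), ZNF461 (12.2), ZNF790 (6.72), ZNF345 (3.72), ZNF829 (2.32), ZNF568 (0.741) and ZNF382 (0.447). In Delta-TRRAP the first 4 kept this order, at 357, 149, 109 and 65.2 for ZNF260, ZNF567, ZNF529 and ZNF850. Next came ZNF790 at 53.0, ZNF461 at 44.9 and ZNF829 at 44.4, followed by ZNF345 at 23.2, ZNF568 at 14.3 and ZNF382 at 1.30. ZNF568 and ZNF382, last in WT, varied by 52.1% and 73.1% between WT libraries, so their order there is within the spread. The levels of ZNF461 and ZNF829 in Delta-TRRAP were closer to each other than the spread of ZNF829 between libraries, whose coefficient of variation was 6.30%. By this measure the members that were called higher remained below the 4 abundant members even in Delta-TRRAP. Summed over the set, the mean was 4559 normalized counts in WT and 5339 in Delta-TRRAP, and the 4 abundant members made up 96.6% of the sum in WT and 76.6% in Delta-TRRAP. Exon lengths run over all annotated transcripts, from 3854 bases in ZNF790 to 18608 in ZNF568, which lowers the per-kb values of the longer genes. The GENCODE canonical transcript of ZNF345 has 2959 bases and that of ZNF850 has 7712. The order between called members and ZNF850 in Delta-TRRAP therefore depends on the length used.

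**Figure D3:**
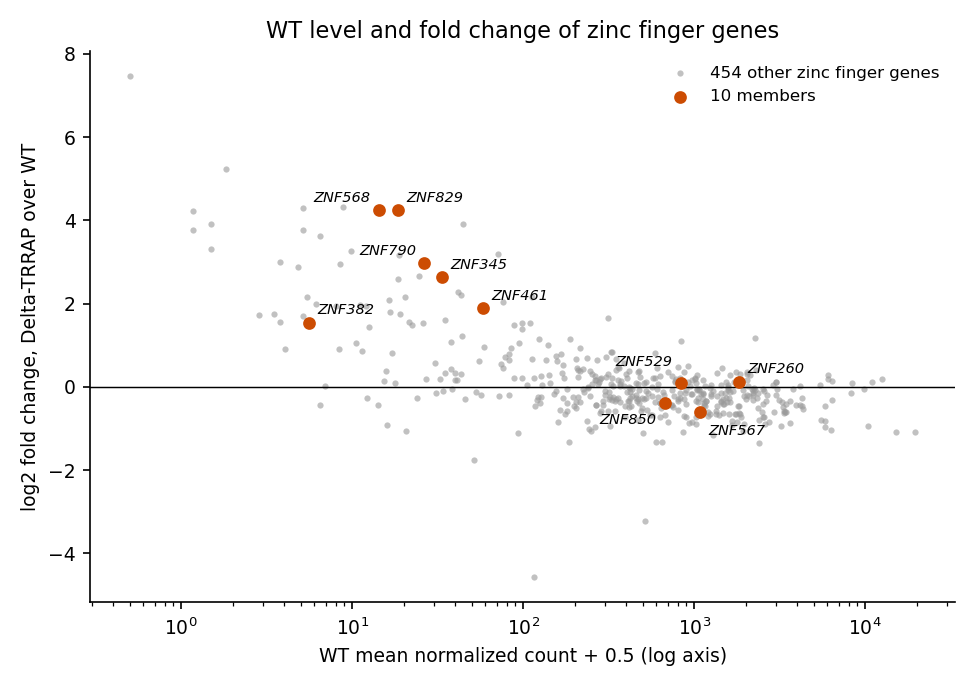
Log2 fold change, Delta-TRRAP over WT, against the WT mean normalized count plus 0.5 (log axis) for the 10 members and 454 other ZNF and ZFP genes that passed the filter. The 6 members with WT means under 100 lie above 1.5 and the 4 with means of at least 500 lie near 0. The highest grey point had no WT count, so its fitted value depends on the prior count.

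The same division by WT level was seen among the other zinc finger genes. Of 90 others with a WT mean under 100 normalized counts, 46 (51.1%) were called higher, with a median log2 fold change of 1.07. Of 140 with a WT mean of 100 to 500, a class that held no member, 6 (4.29%) were called higher, with a median of -0.045. Of 224 with a WT mean of at least 500, 2 (0.893%) were called higher, with a median of -0.27. All protein-coding genes gave 46.0% of 3217, 12.3% of 1850 and 1.72% of 8177 in these classes. The WT counts enter both the level and the fold change, and a gene with a WT mean under 5 passed the filter only through higher Delta-TRRAP counts, so this relation carries no test.

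Set beside the other zinc finger clusters, the members had the highest median, as the choice of the set would give. The 19 other tested zinc finger genes of 19q13.12 had a median log2 fold change of -0.26, with 4 called higher and 2 lower. In 19p12 the median of 27 genes was 0.33 with 8 called higher and 0 lower, and it was -0.21 among genes with a mean of at least 50 and -0.02 without Delta-TRRAP library 2. The medians were -0.24 for 34 genes in 19p13.2, -0.08 for 23 in 19q13.31, -0.27 for 26 in 19q13.41, -0.25 for 17 in 19q13.42, -0.05 for 44 in 19q13.43 and -0.30 for 23 elsewhere on chromosome 19. With scaling by library size alone, which moved the median of all tested genes from 0.03 to 0.17, 19q13.31 stood at 0.05 and 19q13.43 at 0.08. Among 241 zinc finger genes of other chromosomes the median was -0.05, with 27 called higher and 7 lower. The members held 2 of the 17 tested zinc finger genes that were at least 8-fold higher, ZNF829 and ZNF568, and ZNF875 was another.

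**Figure D4:**
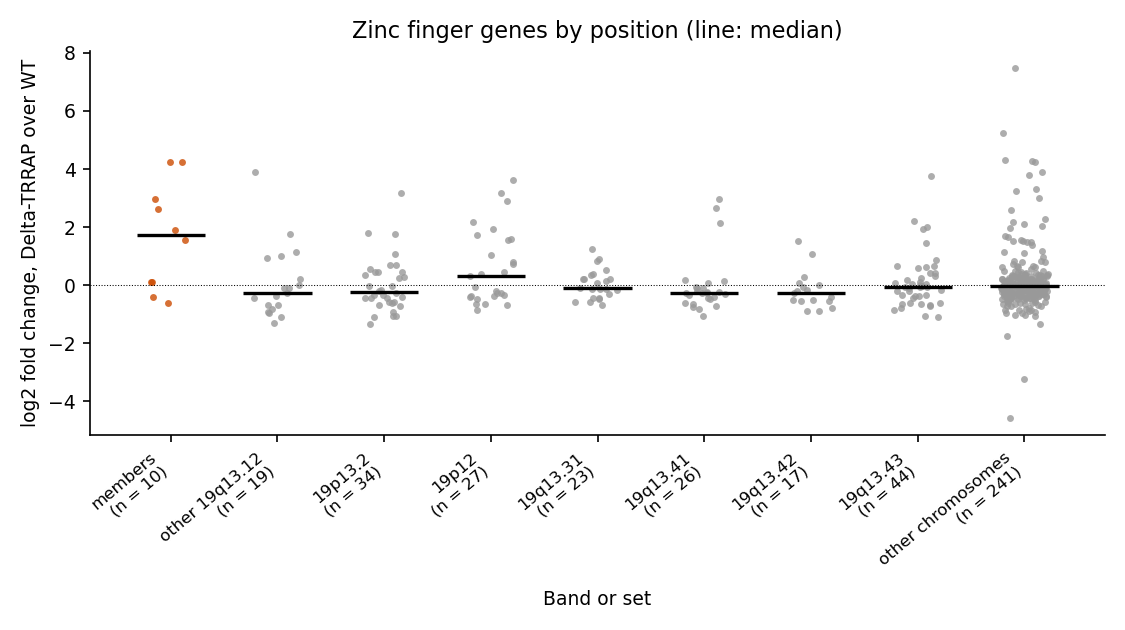
Log2 fold change, Delta-TRRAP over WT, of tested ZNF and ZFP genes by chromosome band (numbers of genes under the axis), with a point per gene and a line at each median. The members spread from -0.61 to 4.25 around a median of 1.71, and every other set plotted has a median between -0.27 and 0.33 with single genes well above it.

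The 5 zinc finger genes outside the stretch with the profile most like the mean profile of the members over the 6 libraries were ZNF76, ZNF862, ZNF677, ZFP90 and ZNF396, of 370 that averaged 100 or more normalized counts. Likeness was the root mean square distance between log2 counts centred on each gene's mean, and it ran from 0.0840 for ZNF76 to 0.206 for ZNF396. ZNF76 rose from 313 ± 12.9 to 980 ± 45.7 normalized counts (SD, n = 3 each) and ZNF862 from 109 ± 5.27 to 317 ± 16.0. Of these 5 only ZNF677 lies on chromosome 19, in 19q13.42. The members themselves lay from 0.168 (ZNF461) to 1.39 (ZNF568) away from their own mean, so the mean described ZNF461 well and few of the others.

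In the proteins of the GENCODE canonical transcripts, all 10 members held C2H2 fingers, from 9 matches in ZNF529, ZNF382 and ZNF829 to 29 in ZNF850. A short stretch of conserved KRAB residues was matched in 7 members and not in ZNF260, ZNF345 and ZNF461, which says only that the searched residues were not found. Protein length ran from 412 residues in ZNF260 to 1090 in ZNF850. Identity over the 45 pairs of members ran from 40.1% to 65.7%, with a median of 52.0%. The best match among 526 other zinc finger proteins was ZNF383 for ZNF829, at 79.7%, and ZNF569 for ZNF568, at 71.9%, both encoded nearby on 19q13.12. The transcripts were nevertheless distinct at the scale of reads: between 0.547% (ZNF260) and 3.64% (ZNF850) of 50-base windows recurred in another counted gene. Reads that mapped to several places had been discarded before counting.

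KRAB proteins act through corepressors, and 25 genes of corepressors and related chromatin factors were tested. They were 12 KRAB corepressor genes, 6 of H3K9 and DNA methylation, 4 of the HUSH group and 3 acting at zinc finger gene 3′ ends. Of the 25, 3 were higher and 12 lower at an adjusted p of 0.01 in edgeR (58.3% of all tested genes in either direction), with a median log2 fold change of -0.20. Among the 12 KRAB corepressor genes alone 2 were higher and 6 lower, with a median of -0.15. TRIM28, the corepressor that the KRAB domain binds, fell from 23440 ± 585 to 15530 ± 112 normalized counts, a log2 fold change of -0.59 ± 0.05 (adjusted p = 3.22e-08). The HP1 gene CBX3 fell by 0.60 on the log2 scale (adjusted p = 2.77e-07) and HDAC2 by 0.62 (adjusted p = 5.49e-08), while the HP1 gene CBX5 rose by 0.32 (adjusted p = 0.00387). SETDB1, the H3K9 methyltransferase of the same complex, held 1920 ± 65.3 in WT and 1913 ± 80.4 in Delta-TRRAP (adjusted p = 0.941), with a 95% interval of the log2 fold change from -0.11 to 0.10. ATF7IP, the partner of SETDB1, rose by 0.36 (adjusted p = 0.000669).

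Of the 6 H3K9 and DNA methylation genes, 5 were lower at an adjusted p of 0.01 in edgeR. Of all tested genes, 58.3% passed it in either direction. UHRF1, which directs DNMT1 to newly copied DNA, was the only gene of the 25 past 2-fold, from 3437 ± 144 to 1399 ± 41.5 normalized counts, a log2 fold change of -1.30 ± 0.05 (adjusted p = 1.24e-11). DNMT1 fell by 0.34 (adjusted p = 6.98e-05), EHMT2 by 0.54 (adjusted p = 2.70e-07) and SUV39H2 by 0.50 (adjusted p = 4.75e-07), and EHMT1 fell by 0.23 (adjusted p = 0.00100). In the HUSH complex, which silences transposons and some zinc finger genes, MPHOSPH8 rose by 0.40 (adjusted p = 6.79e-05) and PPHLN1 fell by 0.37 (adjusted p = 4.56e-06). ZNF274, ATRX and DAXX, which act on the chromatin at the 3′ ends of zinc finger genes, had log2 fold changes of -0.05, -0.01 and -0.12 and did not pass. These are RNA levels of 1 clone per genotype, and the part of these genes in the values of the members was not tested.

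**Figure D5:**
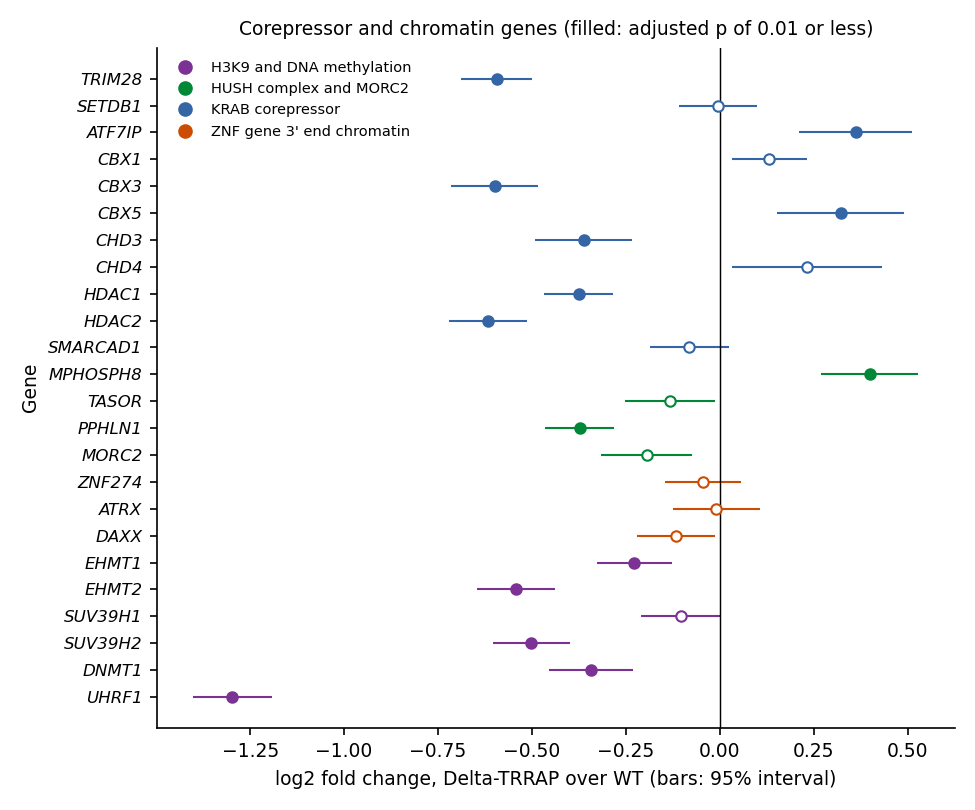
Log2 fold change, Delta-TRRAP over WT, of 24 of the 25 corepressor and chromatin genes in 4 groups (bars: 95% interval from the SE, n = 3 per group), filled where the edgeR adjusted p was 0.01 or less. UHRF1 stands alone at -1.30, TRIM28, CBX3 and HDAC2 lie near -0.60, and SETDB1 lies at 0.

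Library totals were 35076835 to 42616061 counts. EP400 itself, whose counts pool the tagged endogenous copies and the transgene, was at 5057 ± 277 normalized counts in WT and 5574 ± 1238 in Delta-TRRAP (adjusted p = 0.272), so it does not check the labels. The labels give the cell type as lymphoblast, yet the counts of lymphoid markers were low. CD3E averaged 17.02 in WT and 18.78 in Delta-TRRAP, and 4 more of the list were under the filter or without a count. Summed over the lymphoid list, the WT libraries held 59.5 to 67.2 normalized counts and the Delta-TRRAP libraries 42.2 to 60.4. Erythroid markers were present, with GATA1 at 6605 in WT and 5815 in Delta-TRRAP, and of 9 erythroid markers 1 was called higher and 2 lower, TFRC at -1.09 among them. Summed over the erythroid list, the WT libraries held 226200 to 228400 normalized counts and the Delta-TRRAP libraries 125400 to 133000. TFRC made up most of each sum, with means of 192100 in WT and 90170 in Delta-TRRAP, so the sums mainly follow that gene. The megakaryocyte marker ITGA2B fell from 661 to 89.3, and the other 4 of its list were not tested. Of 7 fibroblast markers 4 were tested. COL1A2 averaged 1.62 in WT and 875 in Delta-TRRAP and PDGFRB 1.65 and 9.34, both called higher. COL1A1 averaged 28.7 and 30.1 and DCN 11.6 and 8.90, both not called, while COL3A1, LUM and THY1 were under the filter or without a count. Summed over that list, the WT libraries held 35.5 to 57.0 normalized counts, and 910 to 973 were held by the Delta-TRRAP libraries, nearly all of it COL1A2. The part of these marker shifts in the values of the members was not tested. In RNA of a whole culture, fewer cells of a kind and less RNA per cell cannot be told apart.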

How the data were processed

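RNA of 6 libraries, 3 WT and 3 Delta-TRRAP, was analysed from read counts per gene. The authors aligned reads to hg38 with STAR, kept unique alignments and deposited raw counts from htseq-count (HTSeq 2.0.2, reverse-stranded, union mode, GENCODE release 32). Deposited tables of normalized signal and of the authors' own comparison, which hold fold changes and adjusted p-values, were not used. Groups and replicate numbers came from sample titles.

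Genes averaging 5 or more normalized counts over the libraries were tested, 19114 of the 34998 with a count, with edgeR 4.0.16 in R 4.3.3 (TMM recomputed after the filter, quasi-likelihood F test, group as the only term, prior count 0.125). A call needed a Benjamini-Hochberg adjusted p of 0.01 over all tested genes and a fold change of 2, thresholds that follow the study, which used DESeq2. Normalized counts are counts over TMM-scaled library sizes relative to their geometric mean. Errors are SD for counts and SE for log2 fold changes. The fit was also run on simulated counts with known changes in well-counted genes, which does not cover genes with low counts such as ZNF382.

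Positions and proteins came from GENCODE release 44 on GRCh38 (19041 tested genes matched by ID) and promoters from RefSeq (GRCh38.p14), in which all 10 members were found. Genes were named by rule: the members, protein-coding genes of the stretch, the 5 nearest on each side, the listed corepressor and chromatin genes, the markers, EP400 and the 5 nearest profiles. Values of 2 listed genes are not reported here. LINC01534 and LINC01535 fall outside the rule and were named after their values were seen, and the ZNF143 core was added after the promoters were read. The classes of WT level were also added after the values were seen. Members, lists and tests were chosen with earlier results of these data known. Alternatives were DESeq2 1.42.0, other scalings, filters and thresholds, a block on the replicate number, and the fit without each library in turn. Same-numbered libraries did not deviate together, so the number does not pair them.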

Additional observations from a re-analysis of the deposited data

How the results depend on the processing

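Over 13 alternatives each member kept the sign of its log2 fold change, and of the 6 calls only that of ZNF382 changed. The median of the members was 1.71 as reported, 1.84 with scaling by library size alone, 1.96 with the filter raised to an average of 50 normalized counts, where ZNF382 was under the filter, and 1.36 to 2.02 when each library was left out in turn. The count of members called higher was 5 or 6 throughout. Of all tested genes, 4322 were called (3160 higher), 1964 (1291 higher) with that filter, where fewer genes were tested, and 6750 with a fold change of 1.5. Corepressor and chromatin genes past the adjusted p numbered 13 to 18, as reported 15. CBX5 and EHMT1 were among those that no longer passed it in some alternatives (library scaling left EHMT1 at an edgeR adjusted p of 0.109). With the replicate number as a block, 4184 genes and 5 members were called, and ZNF382 lost its call. The correlations of the deviations of same-numbered libraries were -0.011, -0.036 and -0.024. Depth limits ZNF382, with 1 to 17 reads per library, most. Because the clone and genotype are the same contrast, no alternative can separate them.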
